A study of Mus musculus with 16 samples.

Results

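The proteasome genes were taken as every gene of the deposited table whose symbol consists of Psm, a letter from a to g and a number. This rule gave 46 of the 13085 genes listed. They comprise 3 catalytic subunits of the immunoproteasome, 3 standard catalytic subunits, 7 alpha and 4 non-catalytic beta subunits of the 20S core, 6 ATPases and 11 other subunits of the 19S cap. The remaining 12 are the activator subunits Psme1 to Psme4, the regulator Psmf1, and 3 chaperones of 19S and 4 of 20S assembly. All 46 passed the filter of at least 1 CPM (reads of a gene scaled to a common library size) in at least 2 of 16 libraries, and the lowest member had 100 reads in its poorest library. The family's symbols Psma8 and Psmb11 were not analysed here.

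The RNA came from C57BL/6 monocytes of mice with both copies of Nfam1, a surface receptor of myeloid cells (NFAM1+/+), and of mice in which exons 2 and 3 had been deleted in the germline with CRISPR (NFAM1-/-). All animals descended from crosses of NFAM1+/- mice, so that every cell of a knockout mouse carried the deletion. Cells were left without a stimulus, or pretreated with IFN-γ and then given MegaCD40L, a multimeric ligand of CD40, at 1 µg/mL, and were collected at 6 or 24 h. No library used here had IFN-γ alone or MegaCD40L alone, so the effects of these agents cannot be told apart. Each of the 8 combinations of genotype, stimulus and time has 2 libraries, hence 4 libraries per stimulus and time. The dose of IFN-γ and the source of the cells (blood or bone marrow) are given differently in the labels and in the methods, and animal ages are not given in the sources used here. Title and tag name different genotypes for 4 of 8 libraries at 24 h, numbered 44, 46, 56 and 58. The genotype of the title was used, with the tag as the other reading, and comparisons of stimulus or time average over both genotypes. Nothing in the labels ties a library to one animal, so p-values measure the spread between libraries, which may be partly technical. The paper names fewer mice of each genotype than there are libraries. Libraries of different groups may therefore share animals, which the model does not take into account.

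The proteasome is the protease that breaks down ubiquitin-tagged proteins and supplies most peptides for MHC class I. Its 20S barrel has outer rings of alpha subunits and inner rings of beta subunits, of which only Psmb5, Psmb6 and Psmb7 carry the active sites in the standard form. In the immunoproteasome these are replaced by Psmb8, Psmb9 and Psmb10 respectively, which changes the cut sites towards ends that MHC class I binds. The 19S cap recognises ubiquitin chains and unfolds substrates with its ATPases. PA28, made of Psme1 and Psme2, opens the barrel without ubiquitin. IFN-γ is the classical inducer of the immunoproteasome and of PA28.

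The inducible and standard genes do not lie together in the mouse genome. In GENCODE vM21 (GRCm38) Psmb8 spans chr17:34197721-34201454 on the plus strand and Psmb9 chr17:34181987-34187764 on the minus strand, both inside the MHC region beside the peptide transporter genes. Psmb10 lies at chr8:105935735-105938444 (minus). Psme1 at chr14:55578123-55581529 (plus) and Psme2 at chr14:55587441-55591113 (minus) are close neighbours. Psmb5 lies at chr14:54614119-54618022 (minus), Psmb6 at chr11:70525367-70527858 (plus) and Psmb7 at chr2:38588036-38644087 (minus). The libraries are not stranded, so reads in exons shared with a gene on the other strand cannot be assigned. For Psmb9 5.79% of the exon bases overlap exons of Tap1, for Psmb7 11.8% overlap Nek6, for Psmb8 14.7% overlap the gene model Gm20496, and for Psmb5 12.1% overlap Mir686. Psmb10, Psmb6 and Psme2 share no exon bases with another gene.

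Promoters of 39 of the 46 members, 250 bases before to 50 after the start, are held in a RefSeq table of GRCm38.p6. They were searched on both strands for 4 motifs, and the short stretches below are shown because they place a match beside an inducible and a standard gene. Capitals mark the match, with 10 bases on each side.
Psmb8: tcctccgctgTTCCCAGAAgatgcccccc
Psme1: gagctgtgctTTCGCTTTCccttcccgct
Psmb5: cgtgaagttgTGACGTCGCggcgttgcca
Psmb6: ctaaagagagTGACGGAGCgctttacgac
The Psmb8 stretch (chr17:34198088-34198116, plus strand) holds TTCNNNGAA, the form of a gamma-activated site, from base -97 before the start, inside an exon of a longer Psmb8 transcript in GENCODE. The Psme1 stretch (chr14:55578494-55578522, plus) holds GAAANNGAA, a core of interferon-stimulated response elements, on the opposite strand from base 11 after the start, in its exon. The Psmb5 stretch (chr14:54618024-54618052, minus) and the Psmb6 stretch (chr11:70525338-70525366, plus) hold TGACNNNGC, the core of the antioxidant response elements that NFE2L1 and NFE2L2 bind, from bases -47 and -9. Psmb9, Psmb10 and Psme2 held none of the 4 motifs in this window, and Psmb7 has no entry.

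The shares of members with each motif were set beside those of all 27025 genes in the table. GAAANNGAA was found in 7 of 39 members (17.9%) against 9.76% of all genes, but in the 250 bases before the start alone in 3 (7.69%) against 8.18%. In the whole window TTCNNNGAA was found in 3 (7.69%) against 9.55%, TGACNNNGC in 6 (15.4%) against 14%, and the NF-kB consensus in 6 (15.4%) against 9.55%. Besides Psme1, GAAANNGAA lay in Psmb3, Psmb4, Psmc2, Psmd4, Psmd9 and Psmg4. Psme4 held both the NF-kB consensus and TGACNNNGC. A match describes letters and not binding.

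The libraries held 48295939 to 88514341 reads on listed genes. The authors' scaling raises or lowers whole libraries: reads over the scaled size were 0.756 to 0.788 without stimulus, 1.24 to 1.32 with it at 6 h and 0.970 to 0.997 at 24 h. As a result the median log2 fold change of all 12782 genes tested with the stimulus at 6 h was -0.13 on the deposited scale but -0.86 when each library was scaled to the reads it held, and at 24 h 0.01 against -0.33. Changes of single genes are therefore given on the deposited scale and read against that median, and ratios within a library, which a scaling of the whole library does not move, carry the comparison of inducible with standard subunits. Nfam1 itself was at 408 and 432 CPM in unstimulated NFAM1+/+ against 299 and 321 in NFAM1-/- libraries at 6 h, and at 129 and 133 against 127 and 135 with the stimulus, counted over the whole gene including exons that were not deleted. At 24 h Nfam1 was lower by title in NFAM1-/- without (391 and 441 against 463 and 495) and with the stimulus (201 and 223 against 252 and 271), and under the tags the genotypes overlapped in both. All 9 monocyte markers were listed, and their summed level was 22858 to 25029 CPM without and 8955 to 10915 with the stimulus at 6 h, then 26497 to 30564 and 8874 to 12121 at 24 h. Lyz2 carried most of the unstimulated sums (15690 to 17380 CPM at 6 h) but only 2667 to 4159 CPM of the stimulated one at 6 h. Ly6c2, Fcgr1 and Spi1 went the other way at both times, Ly6c2 from 345 to 503 up to 2200 to 2505 CPM at 6 h. The summed level of 12 neutrophil markers was 117 to 277 CPM without and 101 to 369 with the stimulus at 6 h, then 674 to 1190 and 132 to 228 at 24 h. The part of these marker levels in the results was not tested, and in bulk RNA a change in the share of a cell type and a change per cell cannot be told apart.

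The members as a group took more of the reads with the stimulus, a share that scales each library to its own total of reads. They took 0.520% to 0.557% of the reads of unstimulated libraries at 6 h and 0.774% to 0.802% of stimulated ones. At 24 h they took 0.409% to 0.448% without and 1.02% to 1.07% with the stimulus. The groups did not overlap at either time. At 6 h the gain lay in Psmb8, Psmb9, Psmb10, Psme1 and Psme2: the other 41 members took 0.472% to 0.506% of the reads without and 0.431% to 0.452% with the stimulus. At 24 h those 41 took 0.354% to 0.384% without and 0.597% to 0.622% with it.

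The 3 catalytic subunits of the immunoproteasome rose together. Psmb8, which replaces the chymotrypsin-like site, was at 48.9 and 53.2 CPM in unstimulated NFAM1+/+ and 51.8 and 57.0 in NFAM1-/- libraries at 6 h, and at 551 and 603, and 616 and 626, with the stimulus. At 24 h the unstimulated libraries stood at 68.5 and 84.8 (NFAM1+/+) and 69.9 and 75.5 (NFAM1-/-), and the stimulated ones at 726 and 741, and 685 and 750. Every stimulated library was far above every unstimulated one. The log2 fold change was 3.51 (SE 0.07, limma adjusted p = 8.283e-15), or 11.4-fold, at 6 h and 3.28 (SE 0.07, adjusted p = 3.077e-14), or 9.74-fold, at 24 h.

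Psmb9, which replaces the caspase-like site, started lowest and changed most. It was at 19.7, 21.6, 22.1 and 22.2 CPM in the unstimulated and at 716, 717, 785 and 790 in the stimulated libraries at 6 h. At 24 h these levels were 42.4, 44.0, 44.7 and 53.9 against 692, 705, 739 and 783. The stimulated levels at both times overlapped, while the unstimulated level had risen in between. Its fold change was 35.1 at 6 h (log2 5.14, SE 0.06, adjusted p = 1.061e-16) and 15.8 at 24 h (log2 3.98, SE 0.06, adjusted p = 2.201e-15), placing Psmb9 at percentile 97.1 of all genes tested at each time. Tap1, which shares the 5.79% of exon bases, was at 70.5 to 88.5 and 2658 to 2759 CPM at 6 h. RefSeq places the starts of Psmb9 and Tap1 only 226 bases apart, pointing away from each other. The part of Tap1 reads in the Psmb9 level was not tested.

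Psmb10, which replaces the trypsin-like site, was at 84.3 to 91.3 CPM without and at 790 to 909 with the stimulus at 6 h. At 24 h it was at 86.3 to 106 and at 780 to 903. It rose 10.0-fold (log2 3.32, SE 0.06, adjusted p = 2.029e-15) and 8.77-fold (log2 3.13, SE 0.06, adjusted p = 8.750e-15).

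Their 3 standard counterparts behaved differently at 6 h. Psmb5 was at 66.1, 67.5, 76.0 and 78.4 CPM unstimulated and 53.8, 60.2, 62.0 and 63.3 stimulated, without overlap and in the downward direction. Psmb6 was at 98.4 to 107 and 122 to 132, and Psmb7 at 52.9 to 59.4 and 82.7 to 89.8 CPM. The log2 fold changes were -0.27 (SE 0.07) for Psmb5, 0.31 (SE 0.06) for Psmb6 and 0.61 (SE 0.05) for Psmb7, each with an adjusted p under 0.05. Against the all-gene median of -0.13 Psmb5 lay below and the other two above. Centred on library medians Psmb5 had -0.10 and did not pass. Scaled to own totals of reads, Psmb6 and Psmb7 turned to -0.42 and -0.12 while Psmb5 went to -0.996, so that the direction at 6 h of both depends on the scaling. Under quantile normalization Psmb6 had -0.13 and Psmb7 0.33.

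At 24 h all 3 standard catalytic subunits were higher with the stimulus. Psmb5 was at 48.5 to 60.3 CPM without and 75.7 to 113 with it, Psmb6 at 89.3 to 106 and 178 to 243, and Psmb7 at 35.5 to 41.7 and 92.0 to 101. None of the groups overlapped. The rises were 1.75-fold for Psmb5, 2.28-fold for Psmb6 and 2.47-fold for Psmb7, with log2 values of 0.81, 1.19 and 1.30.

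**Figure D1:**
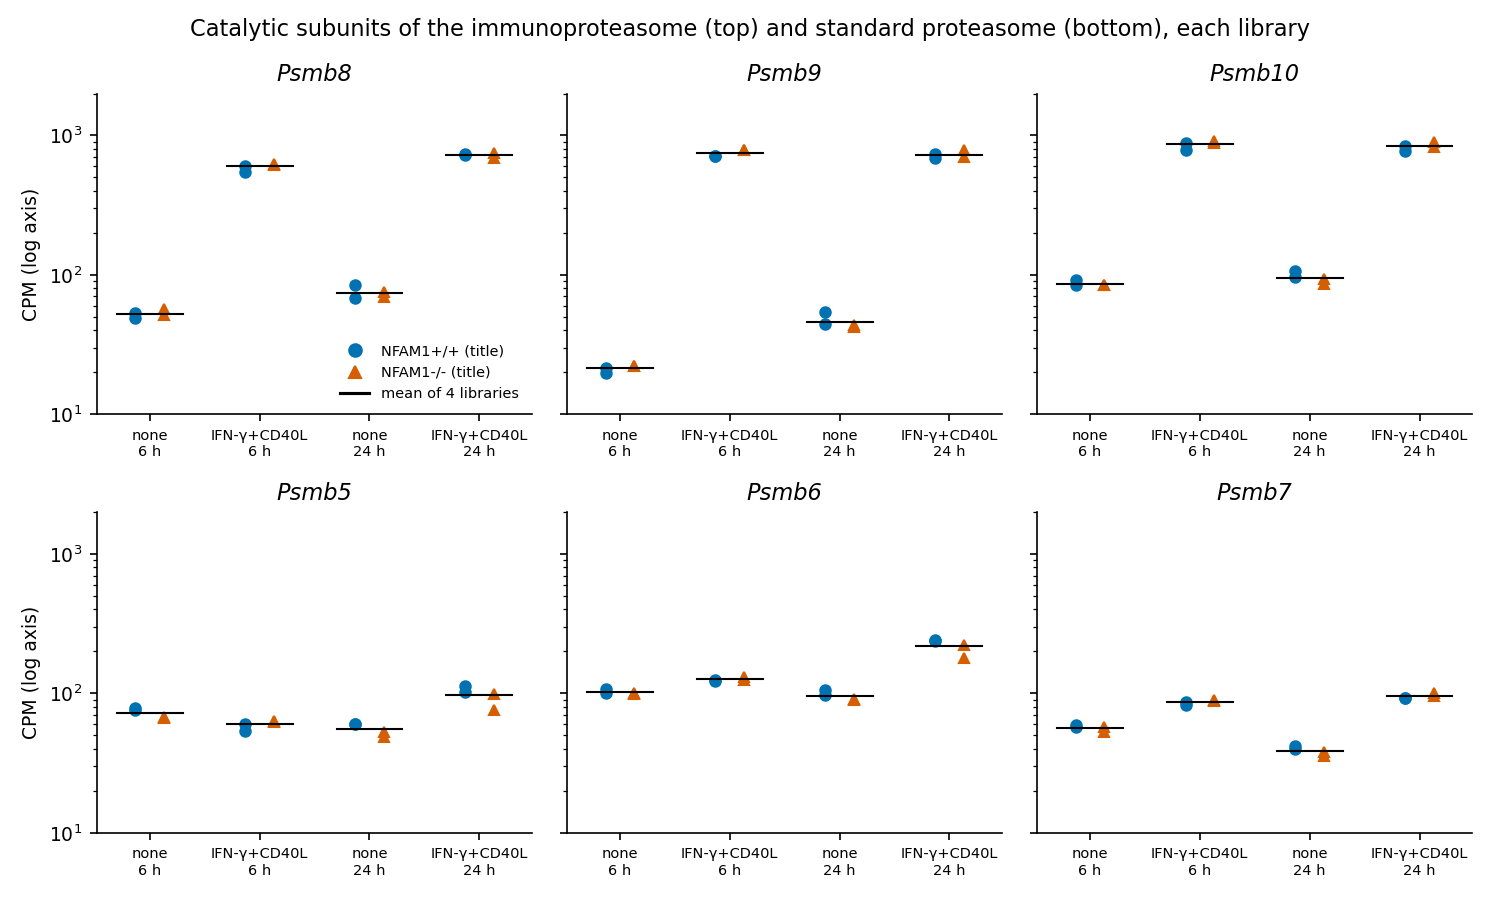
CPM of each library on a log axis for the 3 immunoproteasome subunits (top) and the standard subunit each replaces (bottom), by stimulus and time; circles are NFAM1+/+ and triangles NFAM1-/- by title, and lines are means of 4 libraries. The top panels step up by 8.77-fold or more at both times, while in the bottom panels the stimulated libraries stand clearly apart from the unstimulated ones at 24 h.

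The ratio of each inducible subunit to its counterpart within a library measured the shift directly. On the log2 scale Psmb8 over Psmb5 went from a mean of -0.45 ± 0.19 (SD, n = 4) to 3.32 ± 0.12 with the stimulus at 6 h, a difference of 3.77. Psmb9 over Psmb6 went from -2.25 ± 0.10 to 2.57 ± 0.06, a difference of 4.83, and Psmb10 over Psmb7 from 0.60 ± 0.06 to 3.32 ± 0.05, a difference of 2.71. At 24 h the differences were 2.48, 2.79 and 1.83, smaller in each pair than at 6 h. For all of these, 4 libraries against 4 did not overlap, and the exact two-sided permutation test gave p = 0.0286, the smallest it can give (0.0286 after Benjamini-Hochberg adjustment over 10 tests). Between 6 and 24 h the unstimulated ratios had moved up and the stimulated ones down.

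Per kilobase of exon the subunit with the higher level changed with the stimulus in 2 of the 3 pairs. Psmb8 made up 14.6% to 18.6% of the summed Psmb8 and Psmb5 level per kb without the stimulus at 6 h and 70.9% to 74.8% with it. At 24 h its share was 23.2% to 27.7% and 63.0% to 70.6%. Psmb9 made up 9.07% to 10.3% of the Psmb9 and Psmb6 level and 74.6% to 76.3% at 6 h, then 18.9% to 20.7% and 59.7% to 66.9%. Psmb10 was the larger of its pair in every library, at 74.5% to 76.3% unstimulated and 95% to 95.4% stimulated at 6 h, and at 82.0% to 84.1% and 94.4% to 94.8% at 24 h. These shares rest on exon lengths that include rarely used exons, so their levels, and which subunit is the larger, are less certain than their changes. Without scaling by length the log2 ratio of Psmb8 to Psmb5 was already 0.19 to 0.53 in unstimulated libraries at 24 h. By that measure Psmb8 was the larger with and without the stimulus at 24 h.

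**Figure D2:**
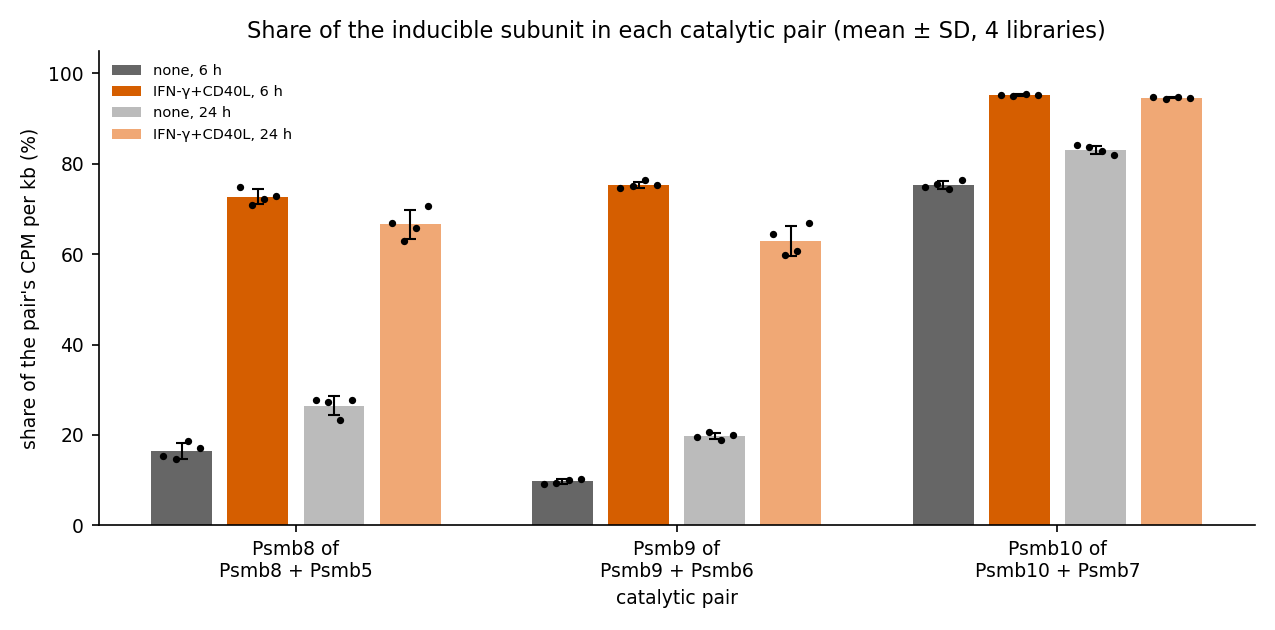
Percent of the summed CPM per kb of each catalytic pair that comes from the inducible subunit; bars are means and error bars SD of 4 libraries, points are libraries. The highest unstimulated share of Psmb8 or Psmb9 is 27.7% and the lowest stimulated one 59.7%, while Psmb10 lies at 74.5% or more in every library.

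Both subunits of PA28 rose, Psme2 within the range of the catalytic subunits and Psme1 by less than each of them. Psme1, its alpha subunit, was at 110, 114, 122 and 125 CPM without and 705, 763, 774 and 792 with the stimulus at 6 h, and at 119 to 141 and 693 to 717 at 24 h. Psme2, its beta subunit, was at 94.1, 107, 112 and 113 without and 1315, 1371, 1382 and 1545 with it at 6 h, and at 87.8 to 116 and 1184 to 1276 at 24 h. The stimulated libraries were well above the others for both genes. Psme1 rose 6.46-fold and 5.41-fold (log2 2.69 and 2.44, SE 0.06), and Psme2 13.2-fold and 12.6-fold (log2 3.72 and 3.66, SE 0.07), at 6 and 24 h. Per kb of exon, Psme2 ranked 9 of the 46 members in unstimulated libraries at 6 h and 1 in stimulated ones, at 60.4 and 796 CPM per kb. Psme2b, a copy of Psme2 elsewhere in the genome, was at 2.27 to 3.46 and 36.0 to 55.4 CPM at 6 h, and reads that fit both genes could have been split between them.

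Of the other activators, Psme3 did not rise at 6 h, and Psme4 rose by less than either PA28 subunit. Psme3, the nuclear PA28 gamma, was at 108 to 117 CPM without and 89.1 to 99.4 with the stimulus at 6 h (log2 -0.25, SE 0.05, and -0.08 and not past the test when centred on medians). At 24 h it was at 90.2 to 101 and 109 to 113 (log2 0.23, SE 0.05, but -0.11 scaled to own totals). Psme4, which encodes PA200, was at 91.3, 91.6, 93.3 and 101 and at 315, 317, 332 and 410 CPM at 6 h, a 3.63-fold rise, but at 97.6 to 107 and 177 to 189 at 24 h, a 1.78-fold rise. Its rise at 24 h was smaller by 1.03 on the log2 scale (SE 0.10, adjusted p = 6.858e-07). The ratio of Psme1 to Psme3 rose by 2.94 at 6 h and 2.21 at 24 h, and that of Psme2 to Psme3 by 3.97 and 3.43, each with the smallest p of the exact permutation test, 0.0286. Psmf1, or PI31, a regulator that binds the 20S core, was at 18.9 to 21.2 and 43.6 to 51.8 CPM at 6 h and at 23.4 to 26.8 and 44.0 to 46.9 at 24 h, rises of 2.41-fold and 1.75-fold.

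Across the whole complex, 33 of 46 members were called higher with the stimulus at 6 h (adjusted p under 0.05) and 6 lower, where 35.0% of all genes tested were called higher and 43.3% lower. The members' median log2 fold change was 0.32 against -0.13 over all genes, and 40 of 46 lay above the all-gene median. At a fold of at least 2 the count was 11 higher and 2 lower, against 19.1% and 20.6% of all genes. When libraries were scaled to their own total of reads, 12 members were called higher and 30 lower, against 19.1% and 69.6% of all genes. This scaling shifts all genes alike, so that the place of a member against the median stays as it was. Under quantile normalization 17 were called higher and 18 lower, with 31 of 46 above the all-gene median. The share of all genes called under quantile normalization is not given here. The split into higher and lower at 6 h thus moved with the scaling.

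The 11 members that at least doubled at 6 h were not spread evenly over the complex. Beyond the 3 immunoproteasome subunits, Psme1 and Psme2, they were Psme4, Psmf1 and 4 of the 7 alpha subunits, the structural ring that forms the gate of the barrel. Psma5 was at 68.6, 74.8, 74.8 and 80.1 CPM without and 340, 342, 355 and 374 with the stimulus, a 4.74-fold rise that lasted at 24 h (5.46-fold). Psma3 went from 89.6 to 99.9 CPM up to 269 to 315, Psma4 from 109 to 124 up to 318 to 341, and Psma2 from 108 to 120 up to 216 to 240. Their log2 fold changes were 1.64, 1.48 and 1.01. Scaled to own totals, which lowered all genes alike at 6 h, Psma3, Psma4, Psma2 and Psmf1 no longer doubled. In the same ring Psma7, Psma1 and Psma6 had 0.74, 0.30 and 0.16, of which Psma1 and Psma6 turned to -0.43 and -0.57 when scaled to own totals, so that subunits that occur once in each alpha ring differed by more than 2 on the log2 scale.

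The non-catalytic beta subunits rose less at 6 h. Psmb4 was at 157 to 172 and 310 to 336 CPM (log2 1.00), and Psmb2, Psmb1 and Psmb3 had log2 fold changes of 0.61, 0.53 and 0.14 that turned to -0.12, -0.20 and -0.60 scaled to own totals. Of the 19S cap, 4 of 6 ATPases were called higher and none lower, with values from -0.11 for Psmc1 and 0.06 for Psmc5, the lowest, to 0.33 for Psmc6 and 0.42 for Psmc2, the highest, and all 6 were negative when scaled to own totals. Of the 11 other cap subunits 8 were called higher and 1 lower, but 7 of the 8 turned negative when scaled to own totals (-0.04 to -0.58). The extremes were 0.78 for Psmd14, the deubiquitinase of the cap, and 0.69 for Psmd8 at the upper end (0.05 and -0.04 scaled to own totals), and -0.12 for Psmd13, whose call 6 other settings lost, and -0.13 for Psmd4, a ubiquitin receptor, at the lower. None of the 17 cap subunits doubled.

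Both members that fell by at least 2-fold at 6 h were assembly chaperones. Psmg1, a partner of Psmg2 in building the alpha ring, was at 6.13, 6.21, 6.64 and 7.75 CPM without and 1.83, 2.04, 2.61 and 2.68 with the stimulus (log2 -1.56, SE 0.12). Psmd5, a chaperone of the cap's base, was at 31.5 to 34.7 and 13.3 to 16.4 (log2 -1.19, SE 0.08). Psmg2 was at 10.1 to 13.1 and 5.20 to 8.07 (log2 -0.80, SE 0.13). Each of these lay below the all-gene median. Psmg3 and Psmg4, which pair with one another, had values of -0.07 and 0.23 that did not pass the test. Psmd10, another base chaperone, rose by 0.81 (0.08 scaled to own totals), and Psmd9 had 0.01. Psmd9 shares 25.5% of its exon bases with the gene model Gm26745.

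**Figure D3:**
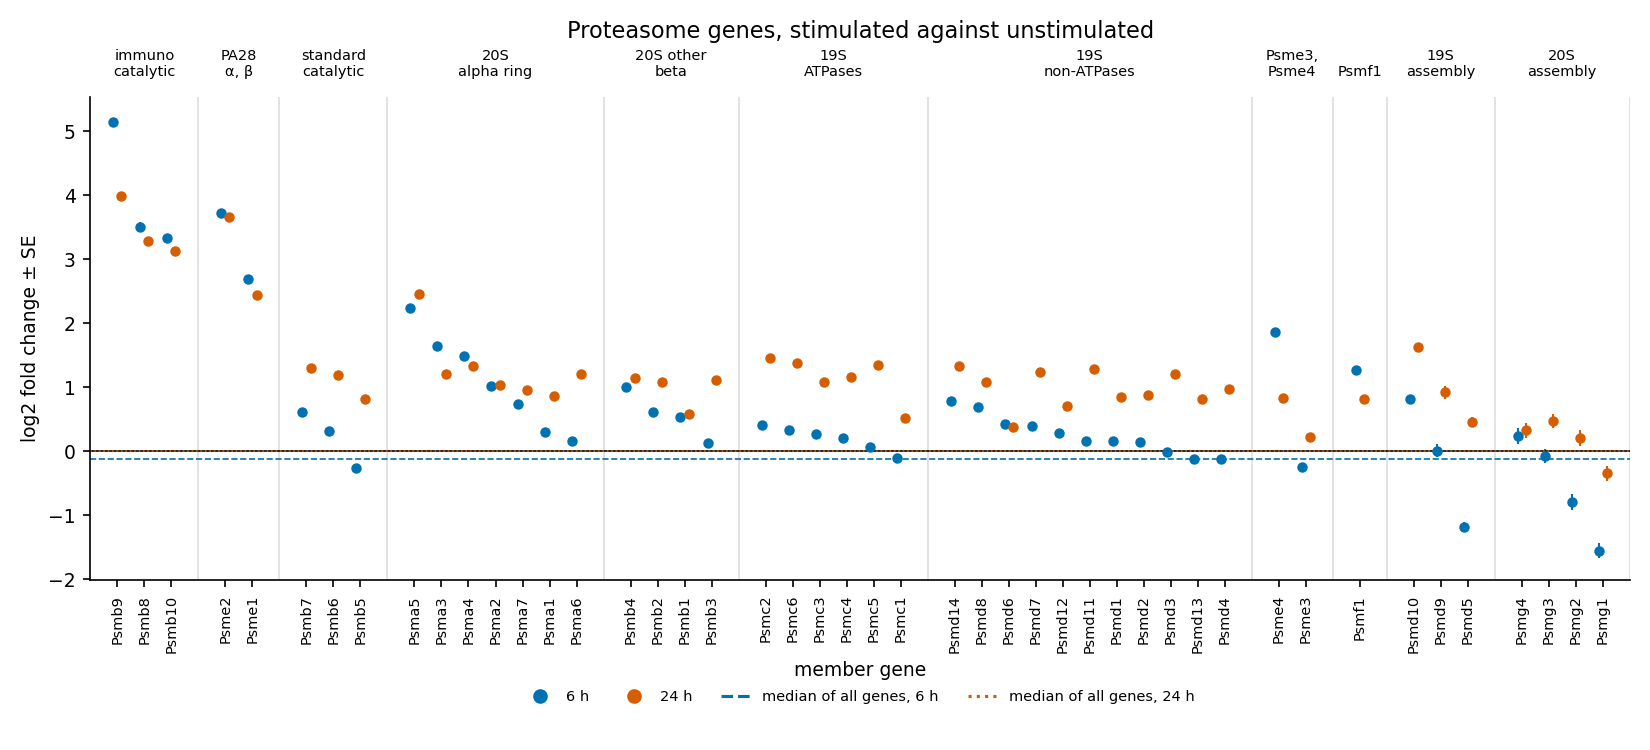
Log2 fold change with the stimulus (± SE) of each member at 6 h (blue) and 24 h (orange), grouped by class; the dashed and dotted lines are the medians of all genes tested, -0.13 and 0.01. At 6 h Psmb9 stands highest at 5.14 and Psmg1 lowest at -1.56, and at 24 h most members of the core and cap lie close to 1.

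At 24 h the rise had spread over nearly the whole complex. Of 46 members 44 were called higher, where 38.3% of all genes were, and 26 at least doubled, where 14.6% of all genes did. Psmg1 was the member called lower (-0.34, SE 0.12), where 36.5% of all genes were, and it lost the call when library 44, 46 or 57 was left out. Psmg2 had 0.21, which did not pass. The members' median log2 fold change was 1.08 against 0.01 over all genes, and scaled to own totals it was 0.75 against -0.33. On own totals 39 were called higher and 1 lower, for which the share of all genes is not given here. Psmb5, Psmb6 and Psmb7 were higher at 24 h under each scaling tried. All 7 alpha subunits (median 1.20), all 6 ATPases (1.26) and all 11 other cap subunits (0.97) were called higher. Psmc2, Psmc6 and Psmc5 rose by 1.45, 1.38 and 1.35, Psmd14 and Psmd11 by 1.34 and 1.28, and the cap chaperone Psmd10 by 1.62. In the cap Psmd6 rose least (0.38), and among the ATPases Psmc1 (0.51).

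The difference between the responses was tested within the model. For 32 members the stimulus effect was larger at 24 h than at 6 h and for 6 smaller, where 35.2% of all genes were larger and 32.0% smaller. The 32 included all 3 standard catalytic subunits (Psmb5 by 1.07, Psmb6 by 0.88 and Psmb7 by 0.69), all 6 ATPases, 10 of 11 other cap subunits and all 3 cap chaperones, and none of the 5 inducible genes. The 6 were Psmb9 (-1.15), Psme4 (-1.03), Psmf1 (-0.46), Psma3 (-0.43), Psme1 (-0.25) and Psmb10 (-0.19). Psmb8 at -0.22 and Psme2 at -0.06 did not pass. The values of Psmb10, Psme1, Psmb8 and Psme2 turned positive when libraries were scaled to own totals, whereas Psmb9 stayed negative. Psmb10 (0.21) and Psme2 (0.34) then passed as larger at 24 h, and did so under quantile normalization too. The place of these genes in either count thus depends on the scaling.

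Part of the larger effect at 24 h lay in the unstimulated cells. Without a stimulus 33 of 46 members were lower at 24 h than at 6 h and 5 were higher, where 30.1% and 34.3% of all genes were lower and higher. The median was -0.34 against 0.04 over all genes. All 7 alpha subunits, all 4 non-catalytic beta subunits and all 6 ATPases were lower. Psmd14 fell from 75.3 to 87.1 CPM down to 35.0 to 38.9 (log2 -1.12, SE 0.05), and Psmc6 from 83.9 to 93.2 down to 51.5 to 54.9 (-0.74). The 5 that were higher were Psmb9 (1.11), Psmg4 (0.53), Psmb8 (0.50), Psmf1 (0.36) and Psmb10 (0.14), the last a call that several other settings lost. The summed neutrophil markers also stood highest in these unstimulated 24 h libraries, as did those of 6 dendritic cell markers (141 to 303 CPM, against at most 67.0 elsewhere) and the 2 listed T cell markers (4.19 to 6.81 CPM, though up to 4.24 with the stimulus at 24 h). Not every marker followed its sum. Flt3 and Cd209a carried that of the dendritic cells, while Zbtb46, Xcr1 and Clec9a were not highest there, nor were Cd8a, Mpo and Elane. The summed B cell markers, mostly Ighm and Igkc, stood highest with the stimulus at 6 h (378 to 551 CPM). The part of these markers in the difference was not tested.

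With the stimulus, 27 members were higher at 24 h than at 6 h and 9 lower, where 39.7% and 36.7% of all genes were. Psmb6 and Psmb5 rose by 0.79 and 0.69, Psmb3 and Psma6 by 0.67 each, and Psmg1, Psmd3, Psmd5 and Psmd9 by 1.34, 1.11, 1.07 and 1.00. Psme4 (-0.90), Psma4 (-0.75), Psma3 (-0.71) and Psmd14 (-0.56) fell. Of the inducible subunits Psmb8 rose by 0.28, and Psmb9, Psmb10 and Psme1 had -0.04, -0.05 and -0.11, which did not pass. Psme2 fell by 0.19 on the log2 scale. These directions between times depend on scaling too. Scaled to own totals, where the median of all genes was itself 0.41, 41 members were called higher and 4 lower. The share of all genes called there is not given here, so these counts cannot be set against it. Psmb9, Psmb10 and Psme1 passed upward on own totals (0.33, 0.32 and 0.26), while centred on medians the same genes passed downward (-0.22, -0.23 and -0.29). The libraries of the 2 times also differ in time of culture and possibly in animals and handling, which cannot be told apart.

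**Figure D4:**
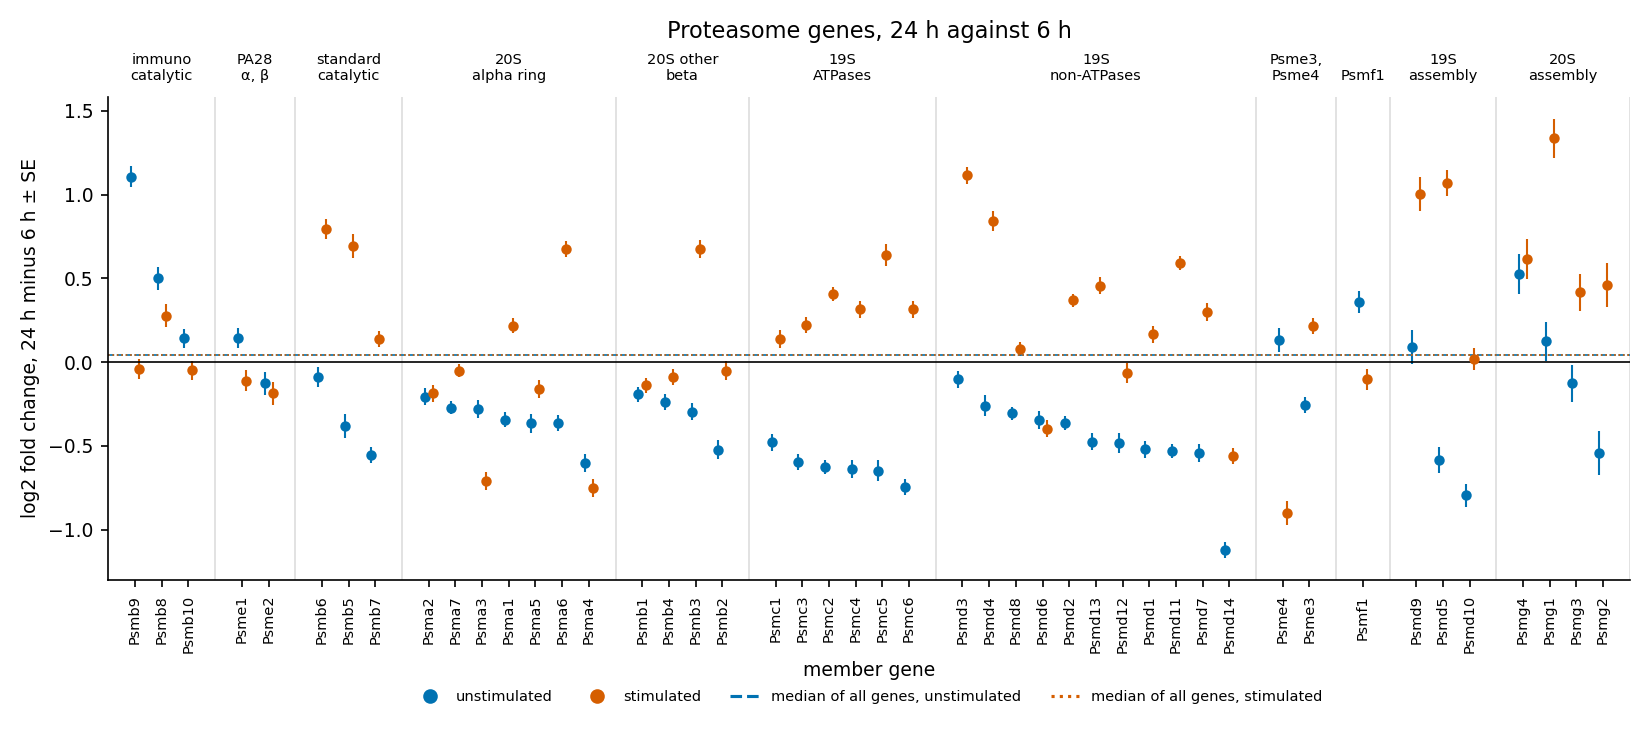
Log2 difference between 24 h and 6 h (± SE) for each member without (blue) and with the stimulus (orange), grouped by class; dashed and dotted lines are the medians of all genes, both 0.04. Without the stimulus the core and cap lie below the line and Psmb9 above it at 1.11, and with it Psmb5, Psmb6 and most cap subunits lie above.

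The ratios between pairs gave the time course free of scaling. Without the stimulus Psmb8 over Psmb5 rose by 0.88 between 6 and 24 h, Psmb9 over Psmb6 by 1.20, Psmb10 over Psmb7 by 0.69 and Psme1 over Psme3 by 0.40, each with no overlap of the 4 and 4 libraries (exact permutation p = 0.0286, adjusted 0.0317 over 10 tests). Psme2 over Psme3 differed by 0.13 (p = 0.3429, exact permutation test). With the stimulus the same ratios fell by 0.42, 0.84, 0.19, 0.33 and 0.40, again without overlap. Against Psme4 in place of Psme3, Psme1 and Psme2 rose by 0.79 and 0.71. With the mean of Psmb1 to Psmb4 as the denominator Psmb8 rose by 0.18 instead, while Psmb9 and Psmb10 had -0.14 and -0.15, the latter with p = 0.0571 in the exact permutation test.

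No member was called between the genotypes. By title, limma with Benjamini-Hochberg adjustment called 0 of 46 members without stimulus at 6 h (0.156% of all genes), with stimulus at 6 h (0%), without stimulus at 24 h (0.954%) and with stimulus at 24 h (2.10%). At an unadjusted p under 0.05 there were 7, 5, 9 and 5 members, where 10.1%, 14.6%, 10.9% and 15.6% of all genes had such a p. The difference of the stimulus effect between genotypes was called for 0 members at 6 h (0% of all genes) and 0 at 24 h (0.540%), with 6 and 4 members at an unadjusted p under 0.05, which 8.53% and 12.2% of all genes had. Under the genotype tags the calls were 0 in all of these comparisons too, but hardly any gene was called. Of all 12782 genes 2 were higher and 0 lower without the stimulus at 24 h, and 2 higher and 1 lower with it. At an unadjusted p under 0.05 there were 2 and 0 members without and with the stimulus at 24 h. The share of all genes with such a p under the tags is not given here.

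For the inducible genes the 95% intervals bound the size of a difference. With the stimulus at 6 h NFAM1-/- minus NFAM1+/+ was 0.11 for Psmb8 (95% interval -0.10 to 0.31), 0.14 for Psmb9 (-0.05 to 0.32), 0.10 for Psmb10 (-0.07 to 0.27), 0.04 for Psme1 (-0.15 to 0.23) and -0.05 for Psme2 (-0.26 to 0.16). At 24 h by title the same differences were -0.03 (-0.24 to 0.17), 0.05 (-0.13 to 0.24), 0.10 (-0.07 to 0.27), -0.04 (-0.22 to 0.15) and 0.00 (-0.21 to 0.20). The stimulus effects on these genes were 2.44 to 5.14 on the same scale.

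The members with the lowest p between genotypes did not pass the test. Without stimulus at 6 h they were Psmc1 (-0.22, adjusted p = 0.303) and Psmc4 (-0.18, 0.424), and with it Psmd1 (-0.22, adjusted p = 0.209) and Psmg2 (0.54, 0.235). Without stimulus at 24 h they were Psma6 (-0.22, adjusted p = 0.192) and Psmc5 (-0.25, 0.313). For the difference of the stimulus effect they were Psmg2 (0.78, adjusted p = 0.447) and Psma3 (0.32, 0.460) at 6 h, and Psma6 (0.35, 0.126) and Psmb7 (0.24, 0.322) at 24 h.

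With the stimulus at 24 h the lowest p belonged to Psmb6 (-0.28, adjusted p = 0.109) and Psmd8 (-0.18, 0.120). Psmb6 was at 239 and 243 CPM in NFAM1+/+ and 178 and 221 in NFAM1-/- libraries, and Psmb5 at 103 and 113 against 75.7 and 98.3. The groups did not overlap, and the lowest value of both genes came from library 58, whose tag names the other genotype. Under the tags the differences were 0.14 for Psmb6 and 0.26 for Psmb5, of the opposite sign. Without library 55 the title comparison rests on library 58 alone for NFAM1-/-, and Psmb5 (-0.51, adjusted p = 0.0107) and Psmb6 (-0.44, adjusted p = 0.00922) passed. Without library 10 at 6 h, library 26 is the lone NFAM1+/+ library with the stimulus, and Psme4 passed (-0.34, adjusted p = 0.0278). In both cases the lone library is assumed to vary like the other groups.

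For the pair ratios by genotype, with 2 libraries against 2, no exact permutation test can go below 0.333. Without any difference 2 and 2 libraries separate at that same rate, so a lack of overlap is described here and not read as an effect. Psmb8 over Psmb5 was higher in NFAM1-/- without overlap in unstimulated cells at 6 h (-0.21 and -0.38 against -0.56 and -0.63) and overlapped with the stimulus (3.28 and 3.34 against 3.20 and 3.48). At 24 h it was higher by title without overlap, by 0.19 without and 0.29 with the stimulus, and overlapped under the tags. Psme2 over Psme3 was lower in NFAM1-/- by title without overlap in unstimulated cells at 6 h (-0.12) and 24 h (-0.28) and with the stimulus at 6 h (-0.17). At 24 h it overlapped without stimulus under the tags, and with the stimulus by both title and tag. Psmb9 over Psmb6 was higher in NFAM1-/- without overlap at 6 h, where title and tag agree. It was at -2.19 and -2.15 against -2.36 and -2.30 without the stimulus, and at 2.66 and 2.57 against 2.52 and 2.55 with it. With the stimulus at 24 h it was 1.82 and 1.98 against 1.54 and 1.60 by title and overlapped under the tags. Without the stimulus at 24 h it overlapped by both title and tag. Psmb10 over Psmb7 and Psme1 over Psme3 overlapped between genotypes in all 4 conditions by title. Under the tags Psmb10 over Psmb7 and Psme1 over Psme3 were higher in NFAM1-/- without overlap in unstimulated cells at 24 h, by 0.14 and 0.24.

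**Figure D5:**
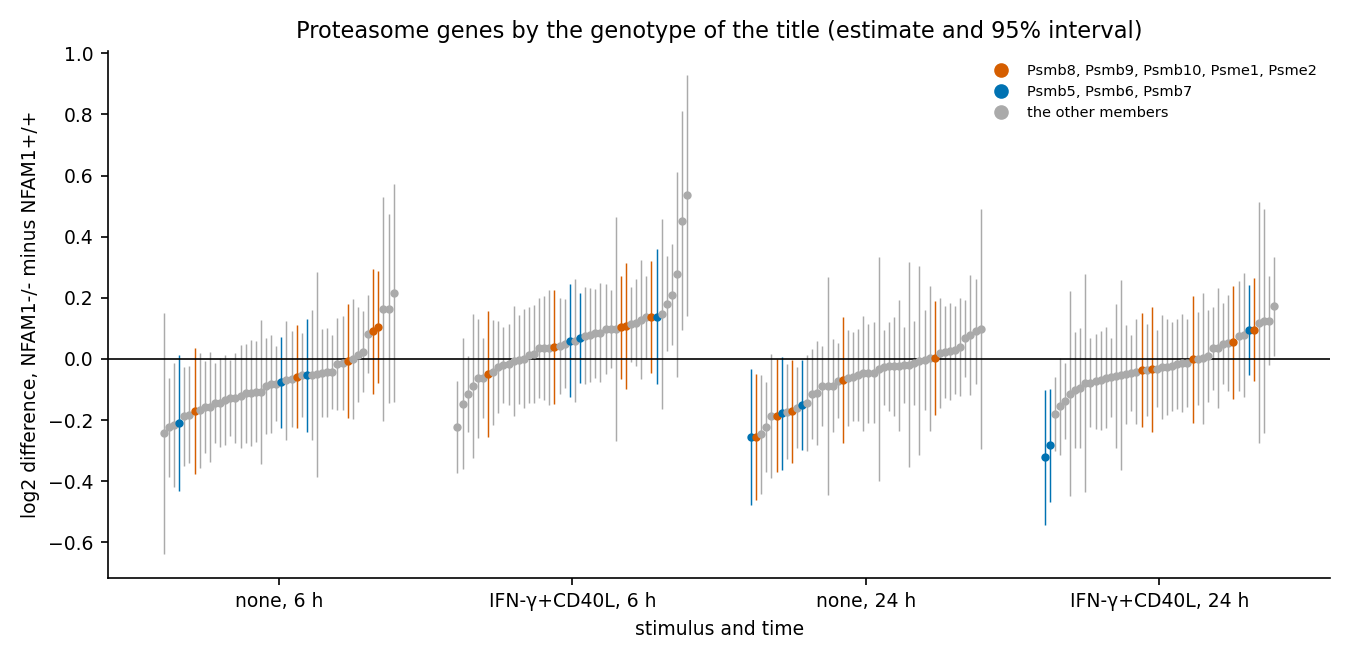
Log2 difference NFAM1-/- minus NFAM1+/+ by title for each member, ordered by size within each stimulus and time, with 95% intervals; orange marks the 5 inducible genes, blue Psmb5, Psmb6 and Psmb7, gray the others. All estimates lie between -0.32 and 0.54, and the 2 lowest with the stimulus at 24 h are Psmb5 and Psmb6.

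Genes that work with the proteasome but are not members were read beside it. Of 12 partners tested, 7 were higher and 2 lower with the stimulus at 6 h and 10 higher and 1 lower at 24 h, beside the 35.0% and 43.3%, and 38.3% and 36.5%, of all genes given above. Pomp, which matures the 20S core and favours the immunoproteasome, was at 91.4 to 100 and 295 to 317 CPM at 6 h and at 103 to 109 and 222 to 249 at 24 h (log2 1.68 and 1.15). Fbxo7, a partner of PI31, rose by 1.60 and 1.73. AI314180, the mouse gene of the scaffold Ecm29, rose by 1.12 and 0.70, and Adrm1, a ubiquitin receptor of the cap, had -0.08 at 6 h, which did not pass, and rose by 1.19 at 24 h. Transcription factors of proteasome genes were read in the same way. Nfe2l1, which drives genes of the standard proteasome, was at 224 to 295 and 473 to 765 CPM at 6 h (log2 1.12) and at 107 to 131 and 762 to 799 at 24 h (log2 2.72). Irf1, which drives immunoproteasome genes, was at 38.6 to 44.5 and 3524 to 3902 CPM at 6 h and at 63.1 to 77.1 and 2645 to 2925 at 24 h (log2 6.50 and 5.34). Nlrc5, an activator of MHC class I genes, rose by 6.39 and 4.14. All 5 genes of MHC class I peptide supply rose at both times, Tap1 by 5.09 and 4.09, Tap2 by 4.93 and 3.73, Tapbp by 4.11 and 2.98, B2m by 2.32 and 2.12 and Erap1 by 2.11 and 1.30. For none of these lists was a gene called between the genotypes.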

How the data were processed

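RNA of 16 libraries (non-stranded, polyA selected, paired reads) was aligned with STAR and normalized with edgeR and limma by the authors, per the labels, which name the build GRCm39. Tool versions are not given in the sources used here. The authors deposited log2 CPM per gene. Each value equals log2 of whole reads plus 0.5 over a scaled library size (all within 0.05 reads), from which reads were recovered. The table lists 17 symbols as dates. The 12782 genes that reached 1 CPM in 2 or more libraries entered a limma 3.58.1 fit in R 4.3.3 with 8 groups and a variance prior that follows expression. Genes were called at a Benjamini-Hochberg adjusted p under 0.05, with a fold of 2 as the second rule. Pair ratios were compared with the exact two-sided permutation test (scipy). Positions, exon lengths and sequences are from GRCm38 tables and only place and scale genes, since the build differs from the authors'. Only the limma fit for the stimulus at 6 h was tested on simulated data.

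Members, classes and related lists were chosen with earlier results of these data known. Named are Psmb8, Psmb9, Psmb10, Psme1, Psme2, Psmb5, Psmb6, Psmb7, Psme3, Psme4, Psmf1, the 2 highest and 2 lowest of each other class with the stimulus at 6 h, members with a fold of 2 in any contrast, the 2 lowest p in each genotype comparison, related genes with a fold of 2, and Nfe2l1, Pomp, Tap1 and Irf1. Other genes named were chosen after their values were seen. Alternatives were other scalings, filters, pseudocounts, variance priors, voom weights, subsets of libraries, the genotype tag and leaving out each library. Some genes of the related and marker lists are not reported here.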

Additional observations from a re-analysis of the deposited data

Results flagged for a closer look

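In 64 groups of 4 libraries looked at, 3 held a library far from the other 3 by Dixon's gap test, where chance gives about 1 in 20. Psmb10 in unstimulated cells at 6 h was at 6.51 log2 CPM in library 2, against at most 6.41 in the others. The log2 ratio of Psmb8 to Psmb5 in unstimulated cells at 24 h was 0.19 in library 45, against 0.50 to 0.53. The log2 ratio of Psme2 to Psme3 in stimulated cells at 6 h was 4.12 in library 26, against 3.79 to 3.81. The stimulus effects were kept without any of these libraries.

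The stimulus effect differed between 24 h and 6 h by the interaction term of the limma model. It was larger at 24 h for 32 members and smaller for 6. The difference in log2 fold change was 1.07 for Psmb5, 0.88 for Psmb6, 0.69 for Psmb7 and 0.47 for Psme3. It was -1.15 for Psmb9, -1.03 for Psme4, -0.46 for Psmf1, -0.25 for Psme1 and -0.19 for Psmb10, whose adjusted p was 0.0440. Scaled to own totals the values of Psme1 and Psmb10 turned positive, and Psmb10 passed in that direction.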

How the results depend on the processing

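No paired analysis was possible because the groups share no replicate numbers. Filters, pseudocount, robust prior, voom weights, single-time models and the tag kept all counts within 1.5 times. With a fold of 2 added, counts higher and lower were 11 and 2 (stimulus 6 h), 26 and 0 (24 h), 11 and 2 (24 h minus 6 h), 1 and 1 (time, unstimulated) and 4 and 0 (time, stimulated). Scaled to own totals they were 12 and 30 at 6 h and 41 and 4 for time with the stimulus, with 2 lower for 24 h minus 6 h. Centring gave 3 lower at 6 h, and 17 and 18 for time with the stimulus. Quantile normalization gave 17 and 18 at 6 h, 0 lower at 24 h, 3 lower for 24 h minus 6 h and 5 lower for time with the stimulus. Libraries with concordant labels gave 0 lower at 24 h and 3 higher for time without stimulus. The scalings differ in the level they set for a library. Shares of all genes called under these other scalings are given here only for own totals at 6 h.

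Leaving out 1 library gave 32 to 33 higher and 5 to 7 lower at 6 h, 43 to 45 and 0 to 1 at 24 h, 31 to 33 and 4 to 7 for 24 h minus 6 h, 4 to 7 and 33 to 34 for time without and 25 to 27 and 7 to 10 with the stimulus. Between genotypes with the stimulus it gave 0 to 1 members at 6 h and 0 to 2 at 24 h, and 0 in the other 4 genotype comparisons. Near 0, Psmd9 ranged from -0.13 to 0.14, Psmd3 from -0.051 to 0.015 and Psmg3 from -0.18 to 0.034 at 6 h, and Psme2 from -0.13 to 0.005 for 24 h minus 6 h.

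At 6 h, scaled to own totals, these turned negative: Psmd8 (-0.0405), Psmb2 (-0.12), Psmb7 (-0.12), Psmb1 (-0.20), Psmd6 (-0.30), Psmc2 (-0.31), Psmd7 (-0.34), Psmc6 (-0.41), Psmb6 (-0.42), Psma1 (-0.43), Psmd12 (-0.45), Psmc3 (-0.47), Psmg4 (-0.50), Psmc4 (-0.52), Psma6 (-0.57), Psmd11 (-0.57), Psmd1 (-0.57), Psmd2 (-0.58), Psmb3 (-0.60), Psmc5 (-0.67) and Psmd9 (-0.72). Under quantile normalization these did: Psma7 (-0.042), Psmd8 (-0.064), Psmb1 (-0.066), Psmc6 (-0.080), Psmc2 (-0.10), Psmb6 (-0.13), Psmc4 (-0.19), Psmb3 (-0.205), Psmd11 (-0.22), Psmd1 (-0.26), Psmc3 (-0.26), Psmc5 (-0.28), Psma1 (-0.30), Psma6 (-0.32) and Psmd2 (-0.62), while Psmg3 became 0.20. Centred, Psmd4 (0.040), Psmd13 (0.047), Psmc1 (0.060), Psmg3 (0.10) and Psmd3 (0.15) turned positive.

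At 24 h own totals reversed Psmg4 (-0.0087), Psme3 (-0.11) and Psmg2 (-0.13), and quantile normalization Psme3 (-0.0147). For 24 h minus 6 h, own totals gave Psme1 0.14, Psmb8 0.175, Psmb10 0.21 and Psme2 0.34, quantile normalization 0.14, 0.17, 0.24 and 0.47, and concordant libraries Psme2 0.039. For time with the stimulus, own totals gave Psme2 0.19, Psme1 0.26, Psmf1 0.27, Psmb10 0.32 and Psmb9 0.33, quantile normalization Psme1 0.35, Psme2 0.36, Psmb9 0.41 and Psmb10 0.42, centring Psmb7 -0.036, and concordant libraries Psmb10 0.007 and Psmb9 0.018. In the 250 bases before the start alone 3 members held GAAANNGAA. Psmd13's call at 6 h was lost when centred, and with no variance trend, single-time models, the tag, concordant libraries and no genotype groups. Psmb10's calls of -0.19 and 0.14 were lost with no variance trend, under the tag and without genotype groups.

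All 10 stimulus ratios kept direction and side with other denominators, log2(CPM + 1) and each library left out. Over time with the stimulus, other denominators gave 0.18 for Psmb8, 0.79 for Psme1, 0.71 for Psme2 and -0.15 for Psmb10 (no longer past the threshold), and without the stimulus -0.26 for Psme2 and 0.013 for Psme1. Leaving out 1 library, stimulus ratios at 6 and 24 h ranged from 3.71 to 3.85 and 2.39 to 2.55 (Psmb8), 4.79 to 4.86 and 2.71 to 2.86 (Psmb9), 2.69 to 2.74 and 1.79 to 1.86 (Psmb10), 2.88 to 2.96 and 2.17 to 2.26 (Psme1), and 3.89 to 4.00 and 3.35 to 3.53 (Psme2). Members had at least 100 reads in every library.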

Other observations

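Genes that bring ubiquitinated proteins to the proteasome were read beside it. Of 9 ubiquitin shuttle genes, the segregase Vcp and its cofactors, 3 were higher and 5 lower with the stimulus at 6 h, and 6 higher and 3 lower at 24 h, where 35.0% and 43.3%, and 38.3% and 36.5%, of all genes were. Ubqln4, a shuttle protein, had a log2 fold change of -1.14 (SE 0.07) at 6 h and -0.27 at 24 h. Nploc4, a cofactor of Vcp, had -0.06 at 6 h, which did not pass, and rose by 1.03 at 24 h. Vcp itself had -0.27 and 0.48. Ddi2, the protease that processes NFE2L1, had -0.41 at 6 h and -1.17 (SE 0.07) at 24 h, while Nfe2l1 rose by 1.12 and 2.72.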
